A study of Mus musculus with 4 samples.

Results

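The 6 genes described are the Dlx homeobox genes counted at the 2 forebrain bigene loci, Dlx1, Dlx2, Dlx5 and Dlx6, together with the antisense RNAs of those loci, Dlx1as and Dlx6os1. They were taken by symbol from the deposited table of raw counts, which lists 24982 genes. RNA sequencing was performed on 4 libraries of mouse forebrain at the embryonic stage E10.5, 2 control and 2 conditional knockout (cKO). The controls were heterozygous for a floxed allele of Chd7, the gene of an ATP-dependent chromatin remodeller (Chd7 +/f). The cKO libraries were Sox1 cre+/-; Chd7 f/f, with both Chd7 alleles floxed and a Cre recombinase named for Sox1, a gene of the early neural tube. The labels named the Cre for the cKO libraries alone, so an effect of that allele and an effect of Chd7 loss cannot be told apart. They did not say whether a library came from 1 embryo or from several, and p-values therefore measure the spread between these libraries, which may be technical.

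Dlx proteins are homeodomain transcription factors related to Distal-less of the fly. The genes lie in convergently transcribed pairs, and the enhancers between the genes of a pair drive them in overlapping domains. In the embryonic telencephalon, Dlx1 and Dlx2 are switched on first in progenitors of the subpallium, the ventral part that gives rise to the basal ganglia and to GABA-producing interneurons, and Dlx5 and Dlx6 follow as these cells mature. Outside the brain the same genes act in the mesenchyme of the branchial arches, in surface ectoderm and in placodes. Dlx6os1, also known as Evf2, is a long non-coding RNA transcribed through an enhancer of the Dlx5/Dlx6 pair, and Dlx1as is transcribed opposite to the 3′ part of Dlx1.

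On GRCm38, Dlx1 lies on the plus strand of chromosome 2 (71528113 to 71533981), Dlx2 on the minus strand (71543408 to 71546754), and 9426 bases separate them. Dlx1as starts in that gap and ends inside Dlx1 (71530638 to 71537891, minus strand). On chromosome 6, Dlx6 is on the plus strand (6863334 to 6867970) and Dlx5 on the minus strand (6877801 to 6882068), 9830 bases apart. Dlx6os1 (6820543 to 6871627, minus strand) spans all of Dlx6. The 4 proteins share the homeodomain, which contacts DNA, and coding bases from it are printed to show how far apart the genes are where reads could be confused. Each window holds 90 coding bases joined across an exon junction, taken from GENCODE M21 transcripts matched to RefSeq, with a base in capitals where all 4 genes carry it.
Dlx1, chr2:71531106-71532302, plus strand: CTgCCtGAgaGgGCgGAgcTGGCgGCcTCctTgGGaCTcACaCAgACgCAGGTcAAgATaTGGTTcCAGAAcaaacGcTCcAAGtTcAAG
Dlx2, chr2:71544886-71545434, minus strand: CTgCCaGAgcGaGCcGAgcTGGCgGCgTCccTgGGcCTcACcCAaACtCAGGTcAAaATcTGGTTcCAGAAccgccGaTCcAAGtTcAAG
Dlx5, chr6:6878450-6879576, minus strand: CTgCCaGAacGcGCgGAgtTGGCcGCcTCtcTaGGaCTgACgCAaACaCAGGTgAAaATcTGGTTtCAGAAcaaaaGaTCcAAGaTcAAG
Dlx6, chr6:6865221-6867079, plus strand: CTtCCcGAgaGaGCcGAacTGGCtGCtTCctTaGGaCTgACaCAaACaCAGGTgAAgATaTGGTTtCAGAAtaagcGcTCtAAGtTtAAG

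Of the 90 bases, 59 were the same in all 4 genes, and Dlx2, Dlx5 and Dlx6 matched Dlx1 at 82.2%, 77.8% and 81.1% of positions. Even so, the longest run of identical bases between any pair of the matched member transcripts was 23, between Dlx2 and Dlx6. Reads overlapping exons on opposite strands are a different matter, because the recorded counting command set no strand option. Exons of Dlx1 and Dlx1as share 335 bases in GENCODE M21, and reads there cannot be told apart. Exons of Dlx6 share 104 bases with Dlx6os2, a second antisense RNA inside Dlx6, and 0 with Dlx6os1.

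The start regions of the members differed in base composition. RefSeq promoter windows, from 250 bases before to 50 after a start, were found for 3 of the 6 genes (GRCm38.p6). The window of Dlx2 holds 29 CG dinucleotides, a number that 12.9% of all 32851 windows reach, and is shown without its 50 transcribed bases, with each CG in capitals.
Dlx2, chr2:71546755-71547004, minus strand: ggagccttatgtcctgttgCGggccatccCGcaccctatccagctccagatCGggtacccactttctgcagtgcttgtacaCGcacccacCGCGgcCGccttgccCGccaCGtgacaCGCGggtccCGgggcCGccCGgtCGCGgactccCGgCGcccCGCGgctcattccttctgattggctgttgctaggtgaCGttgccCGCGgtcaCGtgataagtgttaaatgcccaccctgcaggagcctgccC

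The Dlx1 window was alike, with 27 CG and 69.3% G or C. A window at a start of Dlx6os1 holds 5 CG and 35.7% G or C. It is shown because it carries 2 copies of TAATTA (in capitals), a core sequence of the kind that many homeodomain proteins bind, which reads the same on both strands.
Dlx6os1, chr6:6869484-6869783, minus strand: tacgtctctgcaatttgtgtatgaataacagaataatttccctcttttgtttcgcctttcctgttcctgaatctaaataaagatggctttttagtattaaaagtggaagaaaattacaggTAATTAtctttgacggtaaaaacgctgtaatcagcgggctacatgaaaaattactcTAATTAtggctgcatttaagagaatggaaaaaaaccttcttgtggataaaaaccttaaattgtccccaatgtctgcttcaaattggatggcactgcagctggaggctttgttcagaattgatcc

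At least 1 TAATTA was found in 5.29% of all windows and 2 or more in 0.490%. The median window had 52.7% G or C, and these shares were not taken over windows as poor in G and C as this one. The other Dlx6os1 window has 1 copy, and those of Dlx1 and Dlx2 have 0. CAGCTG, an E-box of the kind bound by basic helix-loop-helix factors and also its own reverse complement, was present once in the printed Dlx6os1 window, against 16.3% of all windows with at least 1. These matches describe the letters only. No binding or methylation was measured here.

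The libraries held 16581252 to 17096522 counts. Chd7 itself had 5659 and 5867 counts in the controls and 2256 and 2229 in the cKO, so that 39.1% of its control RNA level remained. These counts are added up over the exons of the gene. Recombination and Chd7 protein were not measured here. Marker genes of tissue around the brain were detected at levels that varied between libraries. The summed level of 18 head mesenchyme genes was 336.8 CPM (counts scaled to the TMM-adjusted library size) in control replicate 1 and 526.7 CPM in control replicate 2, then 569.6 CPM in cKO replicate 1 and 339.2 CPM in cKO replicate 2, with only Hand2 at 0 everywhere. For 13 genes of surface ectoderm and placodes the sums were 44.8, 120.5, 119.8 and 89.2 CPM in the same order, with Trp63 counts of 0, 101, 79 and 27. Of 7 ventral midline genes the sums were 194.7, 301.9, 164.5 and 230.2 CPM. None of these 3 lists had a called gene. Erythroid genes summed to 2762 and 2984 CPM in the controls and 1840 and 1755 CPM in the cKO. Of 6 tested, 5 were called lower, against 2.13% of all genes tested. Endothelial genes summed to 258.4 and 249.2 against 212.4 and 207 CPM, with 0 of 6 called. All 6 endothelial genes had both cKO libraries below both controls, as did 24.0% of all genes tested. The part of these tissues in the members' values was not tested. Forebrain genes were present in all 4 libraries: 6 of them summed to 646.7 and 553.5 CPM in the controls and 510 and 521.4 CPM in the cKO, with 1 of 5 tested genes lower (Lhx2), while 9 midbrain and hindbrain genes summed to at most 14.0 CPM.

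**Figure D1:**
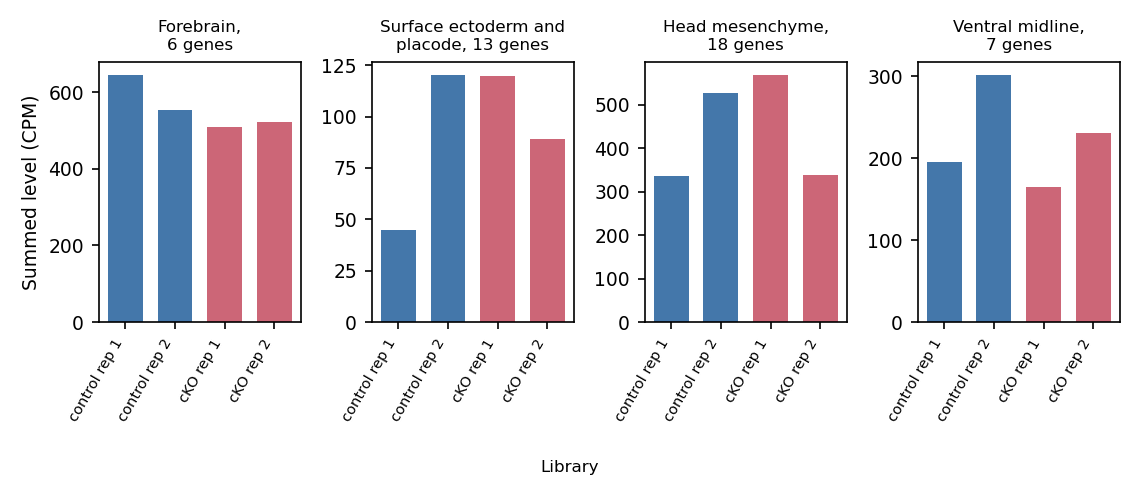
Summed levels of 4 marker lists in CPM (y axes, each from 0) in the 4 libraries (x axes; blue, control; red, cKO). The forebrain sum was 510 and 521.4 CPM in the cKO against 553.5 CPM or more in the controls, whereas surface ectoderm genes were low only in control replicate 1 (44.8 CPM against 89.2 to 120.5) and the remaining lists overlapped between groups.

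All 6 Dlx-locus genes were lower in both cKO libraries than in either control. Dlx1, Dlx2, Dlx1as and Dlx6os1 fell by the edgeR quasi-likelihood test at an adjusted p under 0.05, while Dlx5 and Dlx6 did not pass it. For scale, 2.13% of the 14235 genes tested were called lower, 1.57% higher and 3.70% in either direction, and 24.0% had both cKO libraries below both controls. The members' median log2 fold change (cKO over control) was −3.32, against −0.0003 over all genes tested. In bulk tissue, fewer Dlx-expressing cells and less RNA per cell cannot be told apart. All 6 passed the count filter, 3 of them (Dlx1as, Dlx6 and Dlx6os1) through the controls only, where each reached 10 counts. Ordered from the most negative fold change of all tested genes, Dlx6os1 stood at place 4, Dlx1as at 5, Dlx1 at 14, Dlx2 at 19, Dlx5 at 61 and Dlx6 at 84.

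**Figure D2:**
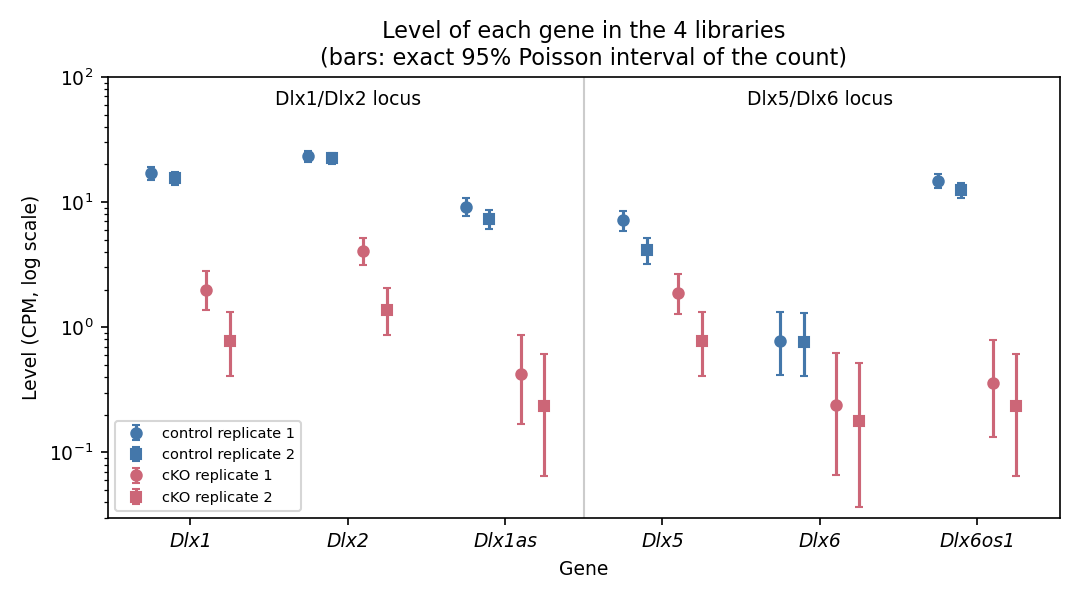
Level of each member in CPM (y axis, log scale) in each of the 4 libraries (blue, control; red, cKO; circles, replicate 1; squares, replicate 2), with bars for the exact 95% Poisson interval of the count. For every member both red points lie below both blue points, and the distance is shortest for Dlx5 and Dlx6.

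At the Dlx1/Dlx2 locus, both homeobox genes fell. Dlx2 is among the earliest known regulators of subpallial progenitors. It had 388 and 382 counts in the controls, and 67 and 23 counts in cKO replicates 1 and 2. The controls were nearly equal, whereas the cKO libraries differed from each other 2.97-fold after scaling (95% exact interval of counting error 1.82 to 5.0). The mean went from 22.9 ± 0.56 to 2.70 ± 1.9 CPM (SD, n = 2), 8.48-fold lower (log2 fold change −3.08, SE 0.36, edgeR adjusted p = 0.0064).

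Dlx1, its partner with overlapping function, had 284 and 263 counts in the controls and 33 and 13 in the cKO libraries. The same library, cKO replicate 1, kept more, by a ratio of 2.59 (1.33 to 5.35). Its mean went from 16.3 ± 1.1 to 1.38 ± 0.86 CPM (SD, n = 2), 11.8-fold lower (−3.56, SE 0.33, edgeR adjusted p = 0.0031). The size of both falls rested on the cKO library used. Without cKO replicate 1 Dlx1 was 20.9-fold and Dlx2 16.7-fold lower, and without cKO replicate 2 Dlx2 was 5.65-fold lower (log2 fold change −2.50). Both stayed called in each of 11 alternative analyses.

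Dlx1as, the antisense RNA, had 153 and 124 counts in the controls and 7 and 4 in the cKO libraries. Its cKO level, 4.0% of the control mean, was below the shares of Dlx1 (8.48%) and Dlx2 (11.8%). The mean went from 8.24 ± 1.3 to 0.329 ± 0.13 CPM (SD, n = 2; −4.62, SE 0.36, edgeR adjusted p = 0.0016). With 11 counts in both cKO libraries together, the counting interval of the pooled share runs from 1.97% to 7.25%, and it overlaps that of Dlx1 (6.11% to 11.4%).

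The Dlx5/Dlx6 locus was split between its members. Its antisense RNA, Dlx6os1, kept the smallest share of its control level among all 6 genes. It had 245 and 211 counts in the controls and 6 and 4 in the cKO libraries, and these groups are far apart. The mean fell from 13.6 ± 1.6 to 0.299 ± 0.088 CPM (SD, n = 2), 44.3-fold lower (−5.47, SE 0.30, edgeR adjusted p = 0.00051). The share left, 2.20% of the pooled control counts, has a counting interval of 1.05% to 4.09%.

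Dlx5 encodes a homeodomain factor that follows Dlx1 and Dlx2 as subpallial cells mature, and is also expressed in the olfactory and otic placodes. Control replicate 1 had 119 counts and control replicate 2 had 70, against 31 and 13 counts in the cKO. The groups did not overlap, but both were spread, with control replicate 1 above control replicate 2 by 1.73-fold (1.28 to 2.36) and cKO replicate 1 above cKO replicate 2 by 2.43-fold. Means were 5.63 ± 2.1 CPM and 1.32 ± 0.78 CPM (SD, n = 2), a log2 fold change of −2.09 (SE 0.46) that missed the threshold (edgeR adjusted p = 0.054, unadjusted p = 0.0022). It passed in 5 of 10 alternative analyses, among them those without control replicate 2 (−2.43, adjusted p = 0.017) and without cKO replicate 1 (−2.86, 0.038), and not without control replicate 1 (−1.64, 0.195) or cKO replicate 2 (−1.59, 0.193). In the authors' deposited table it had a log2 fold change of −2.10 and an adjusted p of 0.0037.

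Dlx6, the partner of Dlx5, was barely detected, with 13 counts in each control and 4 and 3 in the cKO libraries. Mean levels were 0.773 ± 0.010 and 0.209 ± 0.045 CPM (SD, n = 2; log2 fold change −1.85, SE 0.60, edgeR adjusted p = 0.168). The pooled share of 27.1% has a counting interval from 9.91% to 64%, so the depth does not fix the size of this difference. In the authors' deposited table Dlx6 has no adjusted p, and its p was 0.122. Dlx6os2, inside Dlx6, had 7 and 1 counts in the controls and 0 in both cKO libraries, too few to be tested.

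Scaled to exon length, which allows levels of different genes to be compared, the control order was Dlx2 at 9.25 CPM per kilobase, then Dlx5 at 3.96 and Dlx1 at 3.95, Dlx6os1 at 2.70 and Dlx6 at 0.721. Dlx5 and Dlx1 did not differ beyond their spread. In the cKO the order was Dlx2 at 1.09 CPM per kilobase, Dlx5 at 0.927, Dlx1 at 0.335, Dlx6 at 0.195 and Dlx6os1 at 0.0595. There Dlx6os1 stood below Dlx6, but on 6 and 4 counts against 4 and 3, too few to fix their order. The cKO values of Dlx2 and Dlx5 lay within their replicate spread of each other. Dlx1as had no exon model matched to RefSeq and was left out of this order. Every member was higher in cKO replicate 1 than in cKO replicate 2, and higher in control replicate 1 than in control replicate 2, Dlx6 in the controls only through the library scaling. Beyond counting error this held for Dlx1, Dlx2 and Dlx5 in the cKO, and for Dlx5 alone in the controls. Head mesenchyme and surface ectoderm sums were also higher in cKO replicate 1 (569.6 against 339.2 and 119.8 against 89.2 CPM), and lower in control replicate 1.

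Summed over its 3 genes, the Dlx1/Dlx2 locus had 825 and 769 counts in the controls and 107 and 40 in the cKO libraries, and went from 47.4 ± 3.0 to 4.41 ± 2.9 CPM (SD, n = 2), 9.30% of control. The Dlx5/Dlx6 locus had 377 and 294 against 41 and 20 counts, and went from 19.96 ± 3.8 to 1.83 ± 0.91 CPM, 9.15% of control. These shares depended on the cKO library: cKO replicate 1 alone kept 13.6% at Dlx1/Dlx2 and 12.4% at Dlx5/Dlx6, and cKO replicate 2 alone 4.99% and 5.93%. The makeup of the 2 loci changed differently. Dlx1 held 34.4% and 34.2% of its locus's counts in the controls and 30.8% and 32.5% in the cKO. Dlx1as held 18.6% and 16.1%, then 6.54% and 10%. At the other locus Dlx6os1 held 65.0% and 71.8% of the counts in the controls and 14.6% and 20% in the cKO, while Dlx5 went from 31.6% and 23.8% to 75.6% and 65%.

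**Figure D3:**
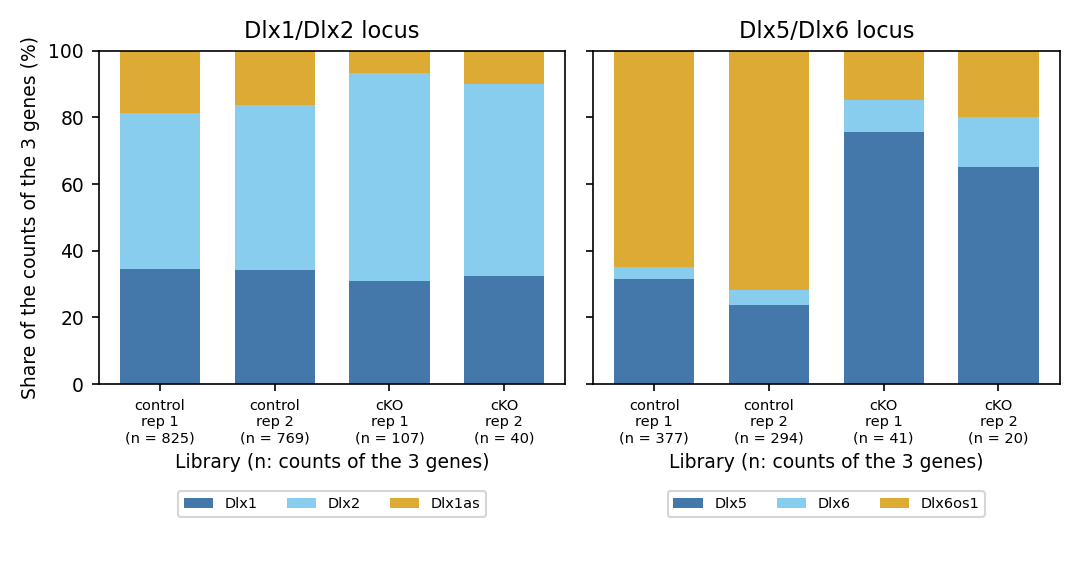
Share of each locus's counts (y axis, percent) taken by its 3 genes in each library (x axis, with the summed count n). Dlx6os1 takes 65.0% and 71.8% of the Dlx5/Dlx6 counts in the controls and 14.6% and 20% in the cKO, whereas Dlx1 stays between 30.8% and 34.4% of the Dlx1/Dlx2 counts.

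Ratios within a library do not depend on its scaling. For each count of Dlx5 there were 2.06 and 3.01 counts of Dlx6os1 in the controls (95% exact counting intervals 1.65 to 2.59 and 2.29 to 4.01), and 0.194 and 0.308 in the cKO (0.0660 to 0.471 and 0.0731 to 0.996). The cKO intervals lie below both control intervals, so the antisense RNA was depleted beyond Dlx5 in each cKO library as far as counting error goes. Dlx1as per count of Dlx1 was 0.539 and 0.472 in the controls and 0.212 and 0.308 in the cKO, where the interval of cKO replicate 2 (0.0731 to 0.996) takes in both control values. Dlx2 per count of Dlx1 was 1.37 and 1.45 in the controls and 2.03 and 1.77 in the cKO, with overlapping intervals. Dlx5 per count of Dlx1 was 0.419 and 0.266 in the controls, against 0.939 and 1 in the cKO. There the interval of cKO replicate 2 (0.427 to 2.34) overlaps that of control replicate 1 (0.335 to 0.521). Dlx6os1 per count of Dlx1 was 0.863 and 0.802 in the controls and 0.182 and 0.308 in the cKO. The interval of cKO replicate 2 (0.0731 to 0.996) again takes in both control values. The 6 ratios compared share genes, and no share over other gene pairs was taken. Only for Dlx6os1 per count of Dlx5 were the counting intervals apart between groups. In value alone, counting error aside, 5 of the 6 did not overlap between groups. Dlx6 per count of Dlx5 did (0.109 and 0.186 against 0.129 and 0.231). With 2 libraries a group, the exact two-sided permutation test cannot go below p = 0.333, which those 5 reached (0.4 after Benjamini-Hochberg adjustment over the 6).

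Among the factors that act before Dlx in the subpallium or pattern the telencephalon, 2 of 10 tested genes fell and 1 rose. Over all genes tested 2.13% fell and 1.57% rose. The list's median log2 fold change was −0.42. Gsx2, a homeobox gene that is needed to start Dlx2 expression in the lateral ganglionic eminence, had 171 and 152 counts in the controls and 21 and 23 in the cKO. It was nearly equal in the cKO libraries, where Dlx1, Dlx2 and Dlx5 differed beyond counting error, and its log2 fold change was −2.86 (SE 0.24, edgeR adjusted p = 0.0018). Olig2, a factor of ventral progenitors, had 508 and 890 counts against 271 and 281 (−1.33, SE 0.23, edgeR adjusted p = 0.028). The member that rose was Sp8, a zinc finger gene active in the lateral ganglionic eminence and at the anterior ridge (0.51, edgeR adjusted p = 0.042). The calls of Olig2 (0.081 without cKO replicate 1, 0.103 without cKO replicate 2) and Sp8 (0.071 without control replicate 2, 0.125 without cKO replicate 1) were lost on leaving out a library, so that 1 gene was lower without either cKO library and 0 were higher without cKO replicate 1.

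Nkx2-1, which specifies the medial ganglionic eminence and the hypothalamus, had 57 and 577 counts in the controls and 71 and 136 in the cKO. Its spread within the controls exceeded the difference between the group means, and no call was made (log2 fold change −1.60, edgeR adjusted p = 0.389). Leaving out control replicate 1 gave −2.46 (0.0038), and leaving out control replicate 2 gave 0.85 (0.328). Between the same controls, replicate 1 over replicate 2, Dlx1 had a ratio of 1.10 (0.927 to 1.31) and Dlx2 of 1.04 (0.897 to 1.20). Dlx1as stood at 1.26 (0.986 to 1.61), Dlx6 at 1.02 (0.435 to 2.39) and Dlx6os1 at 1.18 (0.980 to 1.43). These were within counting error, whereas Dlx5 at 1.73 (1.28 to 2.36) was beyond it. Gsx1, relative of Gsx2 and named after its value was seen, had 30 and 62 counts against 25 and 6 (−1.55, adjusted p = 0.271). Its value was −2.91 without cKO replicate 1, −0.85 without cKO replicate 2 and −0.95 without control replicate 2, with no call in any. Six3, a forebrain homeobox gene, had a log2 fold change of 0.49 (adjusted p = 0.095; 0.0104 without control replicate 2). The hedgehog effectors Gli1 and Gli2 stood at −0.15 and −0.08 (adjusted p = 0.631 and 0.560).

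In a list of genes that lie downstream of Dlx or mark subpallial and GABAergic differentiation, 9 of 22 tested genes fell and 2 rose. The median was −0.47, and over all genes tested 2.13% fell and 1.57% rose. The largest falls among called genes were in genes of GABA neurons and of the striatal lineage. Gad2, an enzyme of GABA synthesis, had 168 and 144 counts in the controls and 12 and 4 in the cKO, 19.1-fold lower (log2 fold change −4.26, SE 0.40, edgeR adjusted p = 0.0031). Gad1, the other such enzyme, had 73 and 64 against 13 and 12 (−2.44, SE 0.34, edgeR adjusted p = 0.012). Slc32a1, the vesicular GABA transporter, had 46 and 35 against 8 and 3 (−2.85, SE 0.53, edgeR adjusted p = 0.035). In each of the 3 the groups were well apart. For Gad2 and Slc32a1 cKO replicate 1 held more than cKO replicate 2, but on few counts and with no counting interval taken. Sp9, a zinc finger factor of striatal projection neurons, had 66 and 62 counts against 8 and 1 (−3.78, SE 0.60, edgeR adjusted p = 0.020). Isl1, a LIM-homeobox factor of striatonigral and cholinergic neurons, had 98 and 89 against 24 and 8 (−2.53, SE 0.45, edgeR adjusted p = 0.029).

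Genes of this list with broader expression in the forebrain moved less. Meis2, a TALE homeobox gene of the lateral ganglionic eminence, fell by 1.24 on the log2 scale, the POU factor gene Pou3f4 by 1.03, Meis1 by 0.83 and the zinc finger homeobox gene Zeb2 by 0.40. Maf, a leucine zipper factor gene of interneurons, rose by 0.81 and Zfp503, a zinc finger gene of the striatum, by 0.51. The edgeR adjusted p of these 6 genes ran from 0.0049 to 0.043. Of the most abundant genes without a call, the chemokine receptor gene Cxcr4 stood at 0.26 and the neuregulin receptor gene Erbb4 at −0.12 (adjusted p = 0.378 and 0.687). Lhx6 and Lhx8, which mark cells of the medial ganglionic eminence and were named after their values were seen, had 24 and 75 against 31 and 20 counts, and 11 and 53 against 0 and 3. Both were highest in control replicate 2, the library rich in Nkx2-1. Neither was called (edgeR adjusted p = 0.441 and 0.094). Lhx8 was called in 3 of 10 alternative analyses. Among these were the DESeq2 Wald test (adjusted p = 0.014) and edgeR with the replicate number as a block (0.045). Its log2 fold change was −5.01 without control replicate 1 and −2.78 without control replicate 2.

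The counts of this programme varied with the libraries. Without control replicate 1 or without cKO replicate 2, 6 genes were lower and 1 higher, and without control replicate 2 or without cKO replicate 1, 7 were lower, with 1 higher in the latter. Calls lost without cKO replicate 2 were those of Gad1 (adjusted p = 0.070), Slc32a1 (0.150), Isl1 (0.068) and Zfp503 (0.128). Those lost without control replicate 1 were Slc32a1 (0.108), Isl1 (0.067), Meis1 (0.059), Zeb2 (0.077) and Zfp503 (0.105). Those lost without cKO replicate 1 were Meis1 (0.086), Zeb2 (0.121) and Maf (0.067), and without control replicate 2 Meis1 (0.066) and Zeb2 (0.0503). Without cKO replicate 1 the log2 fold changes of Gad2, Slc32a1, Sp9 and Isl1 were −5.25, −3.71, −5.84 and −3.53, and without cKO replicate 2 those of Gad2, Sp9 and Isl1 were −3.67, −2.96 and −1.94.

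**Figure D4:**
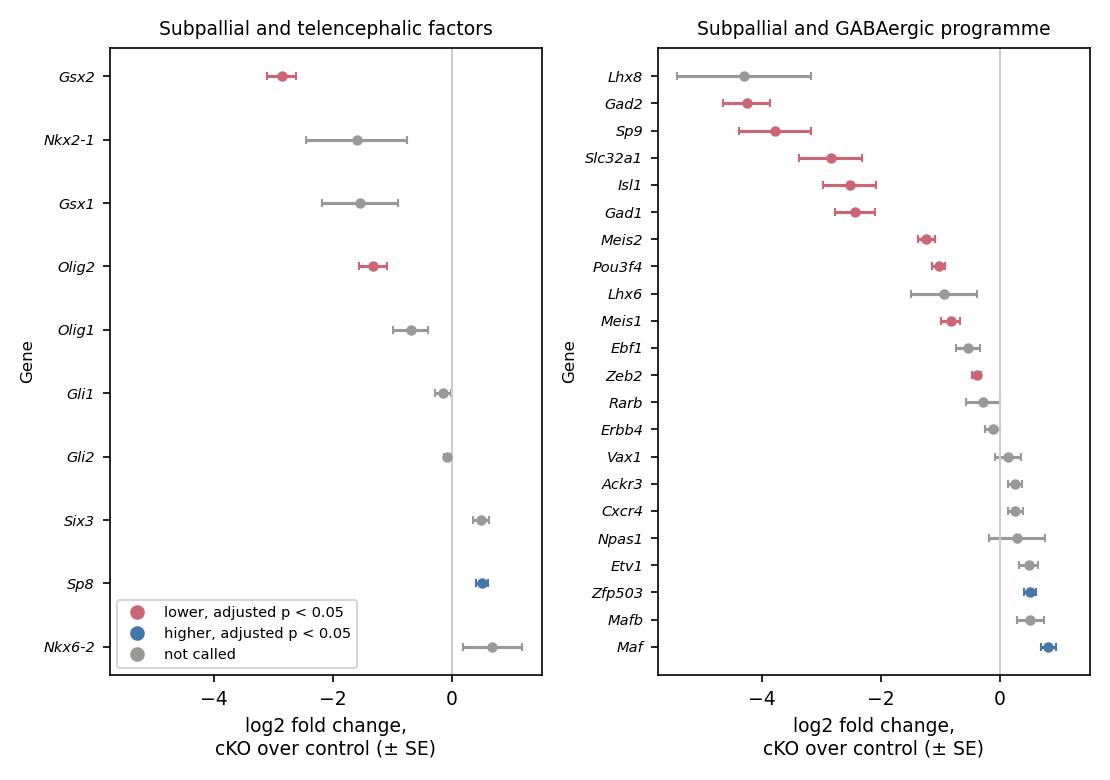
The log2 fold change (x axis, cKO over control, bars ± SE) of each tested gene (y axis) of the subpallial and telencephalic factors (left) and of the subpallial and GABAergic programme (right); red, lower and blue, higher at an adjusted p under 0.05; grey, not called. Gsx2 (−2.86) leads the called genes on the left and Gad2 (−4.26) on the right, where Lhx8 has a more negative value without a call.

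Of 9 tested factors that oppose the subpallial programme from the dorsal side or mark dorsal cells, 3 fell and 0 rose, with a median of −0.87. Over all genes tested the shares were 2.13% and 1.57%. Pax6, a paired homeobox gene of cortical progenitors, had 3642 and 3538 counts in the controls and 1744 and 1762 in the cKO (log2 fold change −1.03, SE 0.05, edgeR adjusted p = 0.00034). The LIM-homeobox gene Lhx2 fell by 0.87 and the doublesex-related gene Dmrta2 by 0.70 (adjusted p = 0.029 and 0.023). In value 6 of the 9 had both cKO libraries below both controls, against 24.0% of all genes tested. Of those 6, 3 were not called. Neurog2, a proneural gene of the cortex, had 1417 and 756 counts in the controls and 416 and 487 in the cKO (−1.26, edgeR adjusted p = 0.0504). Eomes, a T-box gene of intermediate progenitors, had 1461 and 795 against 629 and 424 (−1.09, adjusted p = 0.101), and Tbr1, a T-box gene of early cortical neurons named after its value was seen, 868 and 273 against 204 and 101 (−1.90, adjusted p = 0.119). All 3 were higher in control replicate 1 than in control replicate 2, and without the latter all 3 were called (adjusted p = 0.00013 for Neurog2, 0.0022 for Eomes and 0.0015 for Tbr1). Without control replicate 1 Neurog2 was called at −0.72 (0.024), while Eomes stood at −0.57 (0.249) and Tbr1 at −0.82 (0.367). Without cKO replicate 1 Tbr1 stood at −2.51 (0.119). Gli3, the repressor arm of hedgehog signalling, stood at −0.05 and Emx2, a dorsal homeobox gene, at −0.08. The number lower was 6 without control replicate 2, 2 without cKO replicate 1, where Dmrta2 was lost (adjusted p = 0.070), and 1 without cKO replicate 2, where Lhx2 (0.112) and Dmrta2 (0.082) were lost.

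A further 5 genes are known from mouse mutants to rise when Dlx1 and Dlx2 are lost. Stage and tissue of those mutants were not matched to these libraries. Here 2 of the 5 fell and 0 rose, against 2.13% and 1.57% of all genes tested. All 5 had both cKO libraries below both controls, as did 24.0% of all genes tested. Pak3, a kinase gene of neurite growth, had 1676 and 1139 counts against 690 and 602 (−1.12, SE 0.18, edgeR adjusted p = 0.020), and Olig2, also in the list of ventral factors, is given above. Map2, a dendritic microtubule protein gene, stood at −0.65 (adjusted p = 0.054) and the semaphorin receptor gene Nrp2 at −0.32 (0.239). Without control replicate 2 the number lower was 4, with Map2 (adjusted p = 0.00026) and Nrp2 (0.0102) then called. Without cKO replicate 1 it was 1, and without cKO replicate 2 it was 0, with Pak3 at 0.089.

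No tested neighbour of either locus was called lower, against 2.13% of all genes tested. With so few neighbours tested, a count of 0 is near that share. Of 9 tested genes that start within 500 kb of the Dlx1/Dlx2 locus 0 were lower, and their log2 fold changes ran from −0.53 to 0.43. The nearest, Metap1d, a methionine aminopeptidase gene that ends 2919 bases before Dlx1, had 348 and 313 counts in the controls and 269 and 307 in the cKO (−0.19, SE 0.13, edgeR adjusted p = 0.51). Itga6, an integrin subunit gene 240132 bases beyond, rose from 2557 and 2625 to 3208 and 3725 counts (0.43, SE 0.07, edgeR adjusted p = 0.020), a call lost without cKO replicate 2 (0.068). Around Dlx5/Dlx6 only 2 genes could be tested. Sdhaf3, an assembly factor gene of succinate dehydrogenase 73903 bases away, had 138 and 106 against 97 and 120 counts (−0.16, adjusted p = 0.77). Sem1, a proteasome subunit gene 241885 bases away on the other side, stood at −0.05 (adjusted p = 0.74). Dlx3, a family member outside these loci and known from surface ectoderm, had 3 and 37 counts in the controls and 25 and 18 in the cKO (log2 fold change 0.12, adjusted p = 0.96). It is itself among the 13 surface ectoderm and placode genes summed above, and it was lowest in control replicate 1. Dlx4 had 0, 1, 0 and 0 counts.

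**Figure D5:**
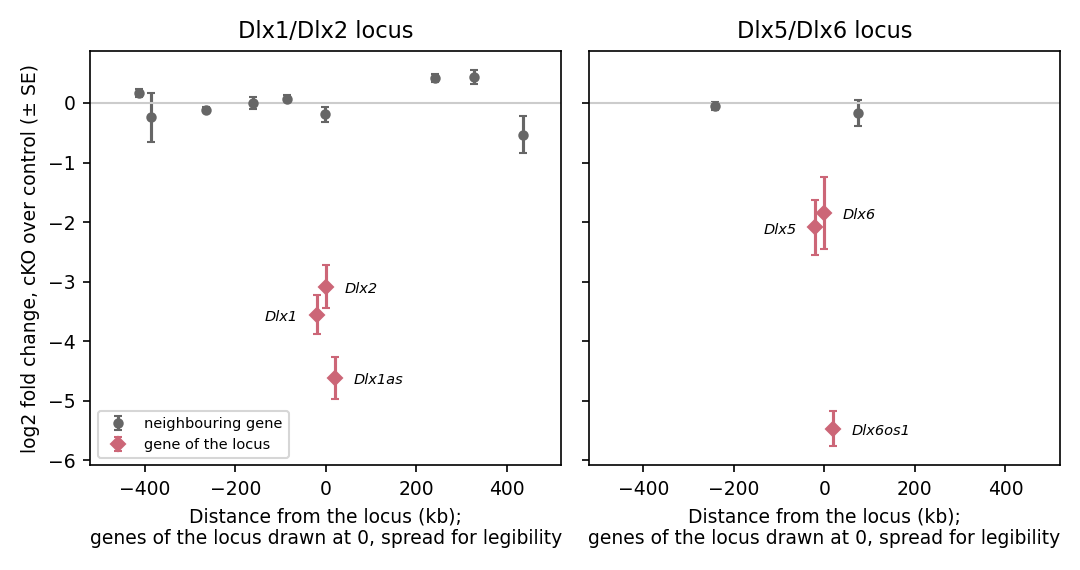
The log2 fold change (y axis, cKO over control, bars ± SE) of tested genes by distance from each locus in kilobases (x axis); grey circles, neighbouring genes; red diamonds, genes of the locus, set at or beside 0 for legibility. Neighbours of Dlx1/Dlx2 lie between −0.53 and 0.43, above the 3 genes of the locus.

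The genes most like the members were sought by profile, as the mean absolute difference between a gene's log2 CPM, centred on its mean over the 4 libraries, and the members' mean centred profile. Only genes that averaged 1 CPM or more were compared, and predicted genes and members were left out. The closest 5 were then Slc17a8 (0.0592), Nlgn1 (0.107), Crb1 (0.176), Vit (0.290) and Dach2 (0.293). The members' own distances ran from 0.173 for Dlx1 to 0.908 for Dlx6, so the mean profile was closer to these genes than to most members. Slc17a8, a vesicular glutamate transporter gene, had 37 and 34 counts against 3 and 1. Nlgn1, a synaptic adhesion gene, had 85 and 65 against 10 and 5, and Crb1, an apical polarity gene, 38 and 41 against 5 and 1. Vit, which encodes the matrix protein vitrin, had 124 and 99 against 14 and 13, and Dach2, a dachshund family gene, 203 and 221 against 46 and 21. They were selected for this pattern over only 4 libraries, so their levels are a description.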

How the data were processed

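Per the file headers, the deposited counts are read pairs on exons, added up for each gene by featureCounts 2.0.1 with a UCSC RefSeq annotation of mm10 (GRCm38) and no strand option. Per the submitters' processing notes, HISAT2 and DESeq2 were also used, with versions not given in the sources used here. In addition, the authors' deposited table adds normalized counts (a signal equal to the raw counts divided by 1 constant per library, 0.990 to 1.013), log2 fold changes, a test score and p-values. Only the values named as such come from it. The number of per-sample columns left without a sample was 0.

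Genes were kept by filterByExpr (minimum count 10), leaving 14235. Library sizes were scaled by TMM, and the cKO was compared with the control by edgeR 4.0.16 (glmQLFit and glmQLFTest, R 4.3.3) with no covariate. Benjamini-Hochberg adjustment covered all genes tested, and an adjusted p under 0.05 was called. CPM uses the TMM-adjusted library sizes, and the SE is the log2 fold change over the root of F. The common biological coefficient of variation was 0.0785. Counting intervals are exact at 95% and cover counting error only. Replicates were distinct libraries (chi-square per degree of freedom 5.37 for the controls and 4.52 for the cKO). On simulated counts the fit recovered 46%, 82%, 94% and 98% of genes lowered 1.5-, 2-, 4- and 8-fold, with 9 false calls of 169 over 14062 genes. The simulated spread followed a gene's mean level only, and the lowered genes averaged 1 CPM or more. These figures therefore do not cover genes that vary more between replicates.

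The members, the 12 gene lists and the tests were chosen with earlier results of these data known. The rule named the members, Chd7, Dlx3 and Dlx4, every called gene and up to 4 of the most abundant others of the 4 programme lists, up to 3 genes of each marker list, the called and nearest neighbours, and the 5 genes closest in profile. Predicted genes and members were left out of those 5. Sequences and positions are from RefSeq GRCm38.p6 and GENCODE M21. The 11 alternatives were each library left out in turn, the replicate number as a block, limma-voom (limma 3.58.1), the Wald test of DESeq2 1.42.0, a filter at a mean of 5 CPM, no filter on counts, and scaling by upper quartiles or by DESeq2 size factors. They were applied to the 4 lists and to 45 named genes after the data were seen. A few results under the naming rule, and those genes in the lists, are not reported here. Plots were drawn with matplotlib 3.10.9.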

Additional observations from a re-analysis of the deposited data

How the results depend on the processing

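Dlx1, Dlx2, Dlx1as and Dlx6os1 kept their direction and their call in every alternative that tested them. The number of members called lower, 4 in the main analysis, ranged from 3 (mean of at least 5 CPM, where Dlx1as, Dlx5 and Dlx6 were not tested) to 5, and from 4 to 5 when a library was left out. Of 62 values of members under alternatives, 57 stayed on the same side of the threshold and 5, all of Dlx5, moved past it. The log2 fold change of Dlx5 was −2.09 with no count filter (adjusted p = 0.0493), −2.10 in the DESeq2 Wald test (0.0038) and −2.13 with the replicate number as a block (0.034), and ran from −2.86 to −1.59 with a library left out. Dlx6 was called in 0 of 9 alternatives (adjusted p 0.166 to 0.467) and had no adjusted p in the DESeq2 Wald test. The cause of these differences was not tested.

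Over all genes, 303 were lower and 223 higher. With the replicate block these were 211 and 137, and without a library 136 to 415 and 82 to 339. Deviations of same-numbered libraries correlated at −0.056 over 14112 genes. This value cannot show whether same-numbered libraries shared a batch, and the labels give them only a number in common. The block gave 5 lower dorsal factors. Where 1 library is left out, the single one remaining in that group is assumed to vary as the other group does.

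Of 482 values of 45 other named genes, 424 kept direction and side of the threshold, 31 lost the call, 18 gained it and 9 changed sign, all 9 in genes without a call. With a library left out, their log2 fold changes ran for Dlx3 from −0.76 (without control replicate 1) to 2.79 (without control replicate 2), Nkx2-1 from −2.46 (without control replicate 1) to 0.85 (without control replicate 2), Gli1 from −0.33 (without control replicate 1) to 0.0498 (without control replicate 2) and Lhx6 from −1.53 (without control replicate 1) to 0.082 (without control replicate 2). They ran likewise for Gli3 from −0.15 (without control replicate 2) to 0.056 (without control replicate 1), Emx2 from −0.29 (without control replicate 2) to 0.17 (without control replicate 1), Sem1 from −0.12 (without cKO replicate 1) to 0.0166 (without cKO replicate 2) and Sdhaf3 from −0.35 (without control replicate 2) to 0.0533 (without control replicate 1). At a mean of at least 5 CPM, 4 genes of the GABAergic programme were lower (Meis1, Meis2, Zeb2 and Pou3f4). Gad1, Gad2, Slc32a1, Sp9 and Isl1 were not tested there. Over all 11102 genes tested at that filter, 280 were lower. Depth limits Dlx6, and the cKO values of Dlx1as and Dlx6os1, which rest on 11 and 10 counts.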
